A study of Rattus norvegicus with 12 samples.

Results

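Circular RNAs (circRNAs) were compared between rats after partial hepatectomy (HT) and normal control rats (NC) in the paraventricular nucleus of the hypothalamus (PVN). The comparison used the raw circRNA counts of 6 of the 12 libraries of the series, 3 from HT and 3 from NC, chosen by their labels. The other 6 libraries came from operated rats given electroacupuncture (HT+EA) or sham electroacupuncture (HT+SEA). Their counts are quoted only beside named circRNAs, as raw counts not scaled to library depth. All rats were male Sprague-Dawley, 7 weeks old when bought. HT rats were anaesthetised with isoflurane and lost a piece of the left liver lobe, whereas no anaesthesia or incision was described for NC, so surgery and anaesthesia cannot be told apart. Both groups were held in the restraint device for as long as the rats given electroacupuncture, so restraint is shared by the controls. Per the methods, tissue for sequencing was collected 24 h after the final electroacupuncture session. The nucleus was dissected by atlas position and is named in the sample titles, while the tissue label reads brain. The table pairs no circRNA with a host gene, so the tissue could not be checked against marker genes. In dissected bulk tissue, fewer cells of a type and less RNA per cell cannot be told apart.

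The PVN holds the neurons that release corticotropin-releasing hormone, the start of the hypothalamic-pituitary-adrenal axis that drives glucocorticoid release under stress. A circRNA forms when the end of an exon is spliced back to the start of an earlier exon, and the closed loop resists exonucleases and tends to accumulate in neurons. Reads across the back-splice junction identify it. Some circRNAs carry sites for microRNAs (miRNAs), and in the competing endogenous RNA model such a loop holds miRNAs away from their target mRNAs.

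The study linked circRNAs to miRNAs and mRNAs by predicted pairing. Its node circRNAs were linked ones that it had already called differentially expressed and that changed with the mRNA and against the miRNA. It listed 22 of them as raised or lowered after hepatectomy. The 3 miRNAs below are examples, each paired by the study with at least 2 of the node circRNAs whose counts are given further on. Some miRNAs not shown, such as rno-miR-138-5p, were paired with more of them than the third example. Of 26 miRNAs paired with these node circRNAs, 24 had an entry in the RefSeq table (GRCr8), which is the source of the sequences. Capitals mark the seed, bases 2 to 8 from the 5′ end, which makes the main contact with a target.
rno-miR-204-3p: gCUGGGAAggcaaagggacguu
rno-miR-3084a-3p: uUCUGCCAguccccuucagaca
rno-miR-667-5p: cGGUGCUGguggagcagugagcac
The first lies at chr1:229743532-229743553 on the plus strand and was paired with novel_circ_0011248, novel_circ_0035558, novel_circ_0018079 and novel_circ_0030598. The second has copies at chr19:55718541-55718562 and chr6:93551127-93551148, both on the minus strand, and was paired with novel_circ_0035558, novel_circ_0017802, novel_circ_0038449, novel_circ_0021753, novel_circ_0022464 and novel_circ_0014876. The third lies at chr6:134555351-134555374 on the plus strand and was paired with novel_circ_0012228 and novel_circ_0012226. The 3 seeds differ from each other. The circRNA sequences and the miRNA levels were not analysed here, so these pairings remain the study's predictions.

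The 6 libraries held 134903 to 259654 back-splice reads of called circRNAs, and HT replicate 3 was the smallest. Of 18415 circRNAs listed in any of them, 5105 (27.7%) were listed in all 6. At the equal depth of 134903 reads a library listed 8679 to 9562 circRNAs, with 9413 ± 139 (SD, n = 3) in NC against 9037 ± 443 (SD, n = 3) in HT. The difference was not resolved from the spread (two-sided exact permutation test, p = 0.3, adjusted over 4 tests 0.5). With 20 ways to assign 6 libraries to 2 groups of 3, the smallest p is 0.1, so these exact tests cannot reach 0.05. The whole profile was compared as Euclidean distances between log2 CPM, CPM being counts scaled to a common library size. The 9 pairs of an NC and an HT library lay 54.1 to 71.7 apart, with a median of 58.8. Pairs within HT lay 56.1 to 68.2 apart (median 66.2) and pairs within NC 55.9 to 62.5 (median 59.9). Of the squared distance between libraries, 19.9% lay between the groups, with a pseudo-F of 0.992 (exact permutation test, p = 0.5, adjusted 0.5). The median distance between groups was thus no larger than that within HT or NC, though each within-group median rests on 3 pairs. Within HT, the distances of 66.2 and 68.2 both involved replicate 3, the smallest library, while replicates 1 and 2 lay 56.1 apart. The distances were not computed at equal depth. HT replicate 3 stood apart at 45.7 on the first principal component, where the others lay between -20.7 and -0.543. Replicates varied by a biological coefficient of variation (edgeR's common estimate) of 34.7% in NC and 32.7% in HT, and 30.5% in HT without replicate 3.

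**Figure D1:**
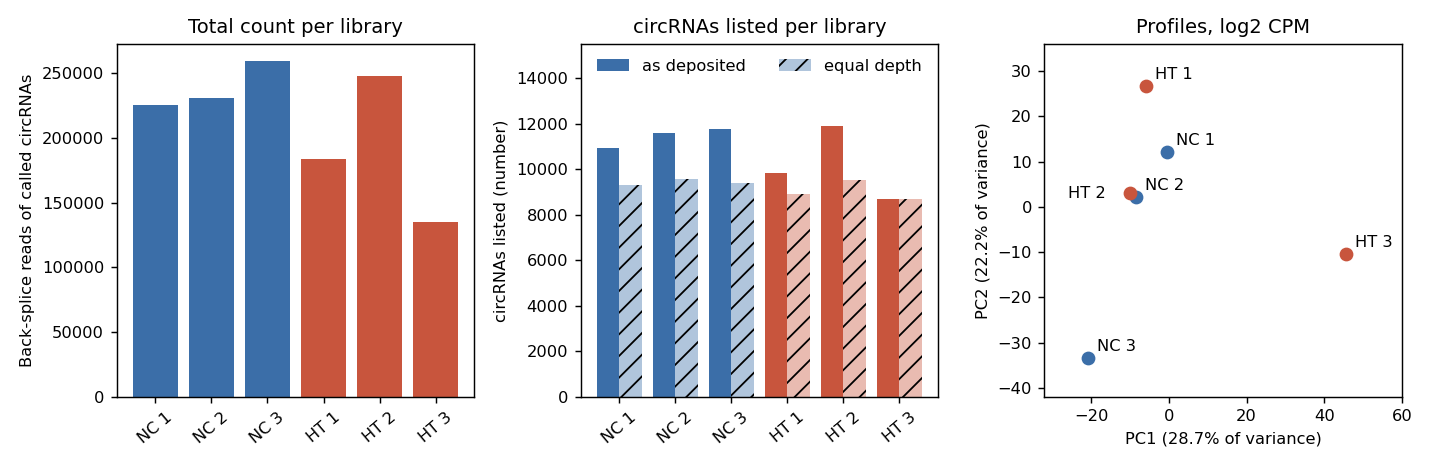
Total back-splice read count (left), number of circRNAs listed as deposited (solid) and at equal depth (hatched, centre), and the first and second principal components of log2 CPM profiles (right), for the 3 NC libraries in blue and the 3 HT libraries in red. HT replicate 3 has the lowest total, 134903, and lies alone at 45.7 on the first component.

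The test of surgery against control called few circRNAs. Of 4013 circRNAs with enough counts to test, 83 (2.07%) passed an unadjusted p below 0.05 with edgeR's quasi-likelihood test, fewer than the 5% that this threshold passes when no circRNA differs. In HT, 36 (0.897%) were higher and 47 (1.17%) were lower. After Benjamini-Hochberg adjustment over the 4013, 2 circRNAs (0.0498%) passed, and both were listed at 0 in all 3 HT libraries. Both passed the count filter through NC alone. Counts in both groups means here a count in at least 1 library of each group. No circRNA with counts in both groups passed the adjustment in this fit (1 did without NC replicate 1, and 6 with no filter), and the smallest adjusted p among them was 0.999, while 79 of them passed unadjusted. DESeq2 gave 35 unadjusted calls (0.872%) and 3 adjusted ones (0.0748%), again without a circRNA counted in both groups. The 36 higher circRNAs had a median fold of 2.10 (range 1.38 to 9.15), and 22 of them exceeded 2-fold. The largest fold, in novel_circ_0039627, came from 5, 0 and 0 counts in NC against 11, 21 and 9 in HT. The 43 lower ones with counts in both groups had a median fold of 1.87 (range 1.20 to 5.64), and 18 exceeded 2-fold. Their largest, in novel_circ_0013232, came from 13, 13 and 15 counts in NC against 0, 6 and 0 in HT. Both of these circRNAs were named after their values were seen. A 0 in some library occurred in 2 of the 36 higher and 5 of the 47 lower calls. Higher and lower calls had similar abundance, with a median of 120 CPM and 130 CPM. In 33 of the 36 and 45 of the 47, no HT library overlapped an NC library. Over all 4013 tested, the groups did not overlap in 195 circRNAs with HT above NC (4.86%) and in 205 with HT below NC (5.11%), so 322 circRNAs with separated groups were not called. Single libraries moved the count of calls and also the number tested. The calls were 131 of 4699 tested without NC replicate 1, 128 of 4543 without NC replicate 2 and 147 of 4502 without HT replicate 2. Without HT replicate 3, which stood apart, 88 of 4645 passed unadjusted and 2 after adjustment. The majority direction also moved, from 36 higher and 47 lower to 70 and 61 without NC replicate 1, 68 and 60 without NC replicate 2, and 54 and 35 without NC replicate 3.

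In each direction, the 2 circRNAs with the smallest p among those counted in both groups are described here. novel_circ_0021228 had 19, 22 and 20 counts in NC against 38, 39 and 25 in HT, and every HT library was above every NC library after scaling. Its level was 102 ± 10.9 CPM (SD, n = 3) in NC against 215 ± 27.3 CPM (SD, n = 3) in HT. The log2 fold change was 1.06 (SE, standard error, 0.28), with a 95% interval of 0.41 to 1.71 (edgeR, unadjusted p = 0.00518, adjusted p = 0.999). The counts were 24, 43 and 29 in HT+EA and 29, 31 and 20 in HT+SEA. novel_circ_0022310 had 7, 15 and 10 counts in NC against 25, 22 and 22 in HT, again without overlap. It rose from 53.8 ± 21.5 CPM (SD, n = 3) to 151 ± 40.5 CPM (SD, n = 3), a log2 fold change of 1.46 (SE 0.41, edgeR, unadjusted p = 0.00687, adjusted p = 0.999). It had 15, 20 and 15 counts in HT+EA and 31, 20 and 14 in HT+SEA. Both increases passed the unadjusted threshold alone.

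In the other direction, novel_circ_0038449 had 42, 26 and 34 counts in NC against 8, 12 and 6 in HT. All HT libraries were below all NC libraries, and the HT values were close together. The level fell from 172 ± 45.0 CPM (SD, n = 3) to 53.4 ± 4.17 CPM (SD, n = 3), with a log2 fold change of -1.66 (SE 0.35, edgeR, unadjusted p = 0.00129, adjusted p = 0.999). This circRNA is also a node circRNA paired by the study with rno-miR-3084a-3p. Its counts were 13, 37 and 17 in HT+EA and 22, 16 and 14 in HT+SEA. novel_circ_0029383 had 17, 13 and 26 counts in NC against 5, 4 and 4 in HT, without overlap. The level was 92.7 ± 26.6 CPM (SD, n = 3) in NC against 28.4 ± 7.86 CPM (SD, n = 3) in HT, with a log2 fold change of -1.73 (SE 0.47, edgeR, unadjusted p = 0.00578, adjusted p = 0.999). It had 3, 18 and 6 counts in HT+EA and 11, 4 and 5 in HT+SEA. Its HT counts of 4 or 5 leave a wide counting error, and limma-voom did not call it (unadjusted p = 0.0940).

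**Figure D2:**
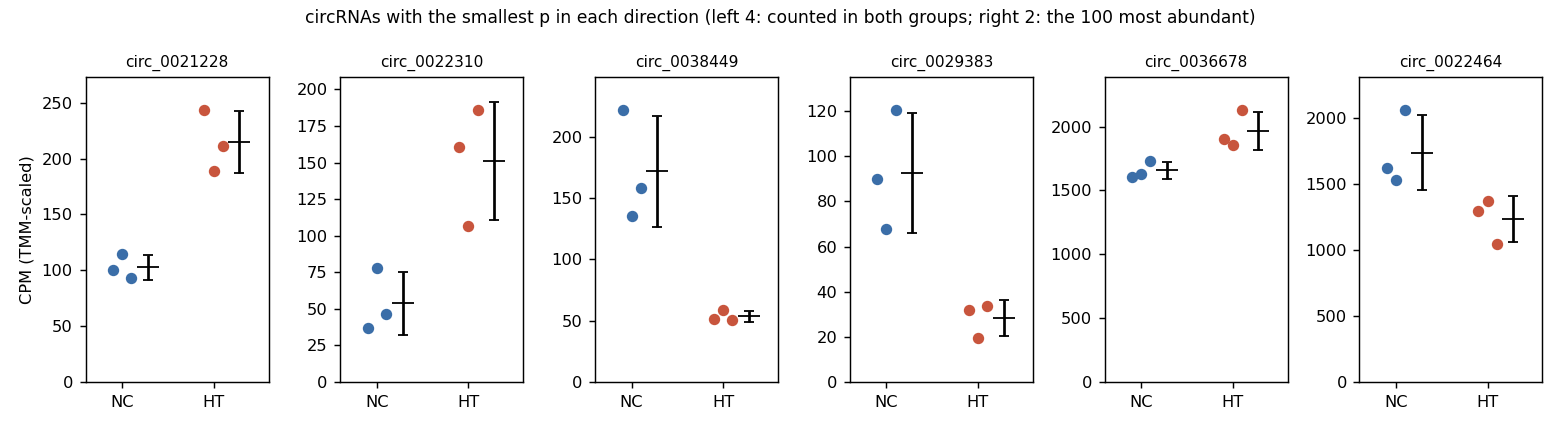
CPM scaled by TMM in the 3 NC (blue) and 3 HT (red) libraries for the 2 higher and 2 lower circRNAs with the smallest p in their direction among those counted in both groups, and for the 1 with the smallest p in each direction among the 100 most abundant; each panel has its own linear axis from 0 and the black bars are mean ± SD. In all 6 panels the groups do not overlap, with novel_circ_0021228 at 102 CPM in NC and 215 CPM in HT on average.

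Some circRNAs had a count in every NC library against 0 in every HT library. The 4 that could be tested are given here, and they passed the count filter through NC alone. Their p-values thus belong to circRNAs selected by their NC counts and are not independent evidence of a difference. novel_circ_0011248 had 105, 96 and 128 counts in NC, or 549 ± 47.6 CPM (SD, n = 3), and was listed at 0 in all 3 HT libraries (edgeR adjusted p = 0.00384). The operated rats of the other groups did list it, with 76, 0 and 84 counts in HT+EA and 141, 96 and 128 in HT+SEA. Over the alternatives its edgeR adjusted p ran from 1.2e-36 with no filter to 0.997 in a fit of all 12 libraries. It was 0.0512 without NC replicate 2. With no filter, 9 of the 22 adjusted calls were listed in 1 library only, so a small adjusted p from that fit can rest on a single library. novel_circ_0035558 had 38, 48 and 42 counts in NC, or 215 ± 30.0 CPM (SD, n = 3), and 0 in all 3 HT libraries (edgeR adjusted p = 0.0285). It had 0, 68 and 36 counts in HT+EA and 0 in all 3 HT+SEA libraries. Its adjusted p ran from 7.86e-15 with no filter to 0.997 with all 12 libraries, and was 0.0485 without HT replicate 3 and between 0.0530 and 0.236 without any other single library. novel_circ_0018079 had 38, 36 and 26 counts in NC and 0 in all 3 HT libraries (edgeR adjusted p = 0.0598, ranging from 1.63e-11 to 0.997 over the alternatives, with a DESeq2 adjusted p of 0.000171), with 0, 44 and 0 in HT+EA and 31, 0 and 0 in HT+SEA. novel_circ_0017802 had 12, 17 and 18 counts in NC and 0 in HT (edgeR adjusted p = 0.720), with 0, 21 and 20 in HT+EA and 23, 0 and 22 in HT+SEA. The table holds no value of 1, so a 0 means fewer than 2 listed reads or no call of the circRNA in that library. No fold is given where a whole group is at 0.

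Listing at 0 where counts were expected also occurred in NC and in other circRNAs. In the 6 libraries 218 circRNAs (1.18%) were listed at 0 in a library where their rate in the others predicted at least 20 counts. Such zeros affected 141 circRNAs in NC and 120 in HT, and 41 to 71 circRNAs in a single library. Of the 10 with exactly 3 libraries at 0, 3 had them in all HT libraries, 0 in all NC libraries and 7 across both groups. The 3 were novel_circ_0011248, novel_circ_0035558 and novel_circ_0018079. An example with zeros in part of a group is novel_circ_0018849, named after its values were seen. It had 119, 0 and 0 counts in NC against 111, 176 and 124 in HT. The log2 fold change was 2.07 (SE 1.25, edgeR, unadjusted p = 0.134, adjusted p = 0.999). With no filter its adjusted p was 2.5e-09 (edgeR). Among tested circRNAs with a count in both groups, the 182 with such a zero had a median standard error of 0.88 and 0 calls, against 0.40 and 79 calls among the other 3827. The part of these zeros in the adjusted calls was not tested. Both circRNAs called after adjustment are among the affected ones by construction, since only NC libraries listed them and gave their expected counts. A circRNA truly absent after surgery would meet the same rule, so the rule cannot tell loss from a missed listing. With the affected circRNAs left out, edgeR gave 107 unadjusted calls among 3828 tested.

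Among all circRNAs listed, 163 (0.885%) had counts in all 3 NC libraries and 0 in all 3 HT libraries, and 38 (0.206%) showed the opposite pattern. Most were at the edge of detection. The NC-only circRNAs had a median of 3.67 counts per NC library, 159 of them averaged under 10, and 4 could be tested. The HT-only circRNAs had 2.33 to 5.33 counts per HT library, and none could be tested. NC libraries were deeper on average, and at equal depth the numbers were 101.35 and 72.7. With a minimum of 5 counts in every library of the listing group they were 8 and 0. The HT-only circRNA with the most counts was novel_circ_0036775, with 4, 9 and 3 in HT. The next ones, with 15 counts each, were novel_circ_0015707 with 6, 5 and 4, novel_circ_0018397 with 5, 3 and 7, and novel_circ_0021681 with 7, 4 and 4. In the other operated rats, novel_circ_0036775 had 3, 3 and 5 counts in HT+EA and 3, 0 and 3 in HT+SEA, and novel_circ_0015707 had 2, 2 and 5 and 0, 6 and 0. There novel_circ_0018397 had 0, 4 and 2 and 3, 0 and 0, and novel_circ_0021681 had 2, 7 and 5 and 3, 0 and 0.

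The node circRNAs were described on the same fit. The study took them from circRNAs it had already called differentially expressed, partly on these libraries. Their direction and their share of calls were favoured in advance and are not independent evidence. The 6 listed as raised included 4 that could be tested and 3 that were called higher, against 0.897% of all tested circRNAs. novel_circ_0012226 had 49, 35 and 17 counts in NC against 54, 90 and 54 in HT, without overlap after scaling. Its log2 fold change was 1.26 (SE 0.39, edgeR, unadjusted p = 0.0116, adjusted p = 0.999). It was not called in the fit with all 12 libraries (edgeR, unadjusted p = 0.0991). novel_circ_0012228, paired with the same rno-miR-667-5p, had 30, 13 and 9 counts in NC against 26, 61 and 26 in HT, and scaled values again did not overlap. Its log2 fold change was 1.36 (SE 0.49, edgeR, unadjusted p = 0.0225, adjusted p = 0.999). The call was lost without NC replicate 2 (edgeR, unadjusted p = 0.0719), NC replicate 3 (edgeR, unadjusted p = 0.0574) or HT replicate 2 (edgeR, unadjusted p = 0.0908). novel_circ_0040150 had 27, 31 and 53 counts in NC against 87, 43 and 67 in HT, and HT replicate 2 overlapped the NC range. Its log2 fold change was 1.26 (SE 0.41, edgeR, unadjusted p = 0.0147, adjusted p = 0.999). It was not called without NC replicate 1 (edgeR, unadjusted p = 0.0529), NC replicate 2 (edgeR, unadjusted p = 0.0507) or HT replicate 1 (edgeR, unadjusted p = 0.0580). The fit with all 12 libraries did not call it either (edgeR, unadjusted p = 0.0750). novel_circ_0020665 had 58, 150 and 49 counts in NC against 193, 116 and 93 in HT, which overlapped, and did not pass (edgeR, log2 fold change 0.98, unadjusted p = 0.0684, adjusted p = 0.999). It passed without NC replicate 2 (edgeR, unadjusted p = 0.00267) and without HT replicate 2 (edgeR, unadjusted p = 0.0453), and also with DESeq2 (unadjusted p = 0.0279), limma-voom (unadjusted p = 0.0269), no filter (unadjusted p = 0.000369) and a mean count of at least 2 (unadjusted p = 0.0483).

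Raw counts of these circRNAs in the other operated rats varied widely, and the part of library depth in that was not separated. novel_circ_0012226 had 63, 87 and 66 in HT+EA but 126, 10 and 7 in HT+SEA. novel_circ_0012228 had 33, 61 and 41 in HT+EA and 37, 11 and 7 in HT+SEA. In both, 2 of the HT+SEA libraries were below every HT library in raw counts and 1 was not. novel_circ_0040150 had 31, 53 and 143 in HT+EA and 123, 26 and 31 in HT+SEA, and novel_circ_0020665 had 80, 161 and 67 and then 88, 93 and 194. The untested members were rare. novel_circ_0033903 had 0, 0 and 2 counts in NC against 6, 6 and 7 in HT, and novel_circ_0000381 had 0 in NC and 4, 2 and 7 in HT. In HT+EA and HT+SEA, novel_circ_0033903 had 3, 7 and 0 and then 5, 3 and 0, and novel_circ_0000381 had 0, 3 and 0 and then 7, 4 and 8.

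The 16 node circRNAs listed as lowered included 9 that could be tested and 8 that were called lower, against 1.17% of all tested circRNAs. That share was favoured by how the study chose them. Of the 8, 4 were at 0 in all HT libraries and passed the count filter through NC alone. The 16 fell into those at 0 in all HT libraries, 9 of 16, and those with counts in both groups. Of all listed circRNAs, 0.885% had counts in every NC library and 0 in every HT library. Of the 9 at 0, 4 were tested and are novel_circ_0011248, novel_circ_0035558, novel_circ_0018079 and novel_circ_0017802, given above. The 5 untested ones, novel_circ_0030598, novel_circ_0032515, novel_circ_0010173, novel_circ_0011413 and novel_circ_0035132, had no more than 10 counts in any NC library and 0 to 17 in any HT+EA or HT+SEA library. Of the 5 tested with counts in both groups, 4 were called, and novel_circ_0038449 had the smallest p. novel_circ_0021753, also paired with rno-miR-3084a-3p, had 77, 60 and 37 counts in NC against 19, 27 and 17 in HT. The HT libraries were all lower, with a log2 fold change of -1.16 (SE 0.36, edgeR, unadjusted p = 0.0103, adjusted p = 0.999). novel_circ_0037557 had 38, 43 and 66 counts in NC against 19, 29 and 10 in HT, also without overlap. Its log2 fold change was -1.05 (SE 0.32, edgeR, unadjusted p = 0.00977, adjusted p = 0.999). novel_circ_0011899 had 35, 53 and 27 counts in NC against 2, 29 and 0 in HT. HT replicate 2 overlapped NC, and the difference did not pass (edgeR, log2 fold change -1.76, standard error 0.88, unadjusted p = 0.0778, adjusted p = 0.999), but it passed without HT replicate 2 (edgeR, unadjusted p = 0.000568). It also passed with DESeq2 (unadjusted p = 0.0452), all 12 libraries (unadjusted p = 0.0465), no filter (unadjusted p = 0.000137) and a mean count of at least 2 (unadjusted p = 0.0487). In HT+EA and HT+SEA, novel_circ_0021753 had 21, 107 and 25 and then 57, 57 and 51 counts, novel_circ_0037557 had 43, 68 and 43 and then 49, 28 and 35, and novel_circ_0011899 had 48, 39 and 53 and then 20, 5 and 23.

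The untested novel_circ_0014876 had 17, 8 and 10 counts in NC against 3, 0 and 0 in HT, and novel_circ_0034585 had 11, 13 and 5 and then 0, 3 and 0. In HT+EA and HT+SEA the former had 0, 5 and 2 and then 15, 8 and 0, and the latter had 5, 4 and 4 and then 5, 9 and 0. Scaled to the library total, the groups did not overlap in 4 of the 6 raised and in 15 of the 16 lowered members. Among all tested circRNAs, scaled by TMM, the share was 4.86% with HT above NC and 5.11% with HT below NC. The share over all listed circRNAs, which would include the untested ones, was not computed. Among tested members with counts in both groups, the median log2 fold change was 1.26 for the raised and -1.16 for the lowered, beside -0.00905 over all tested circRNAs. That contrast and the lack of overlap follow from how the study chose the list.

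**Figure D3:**
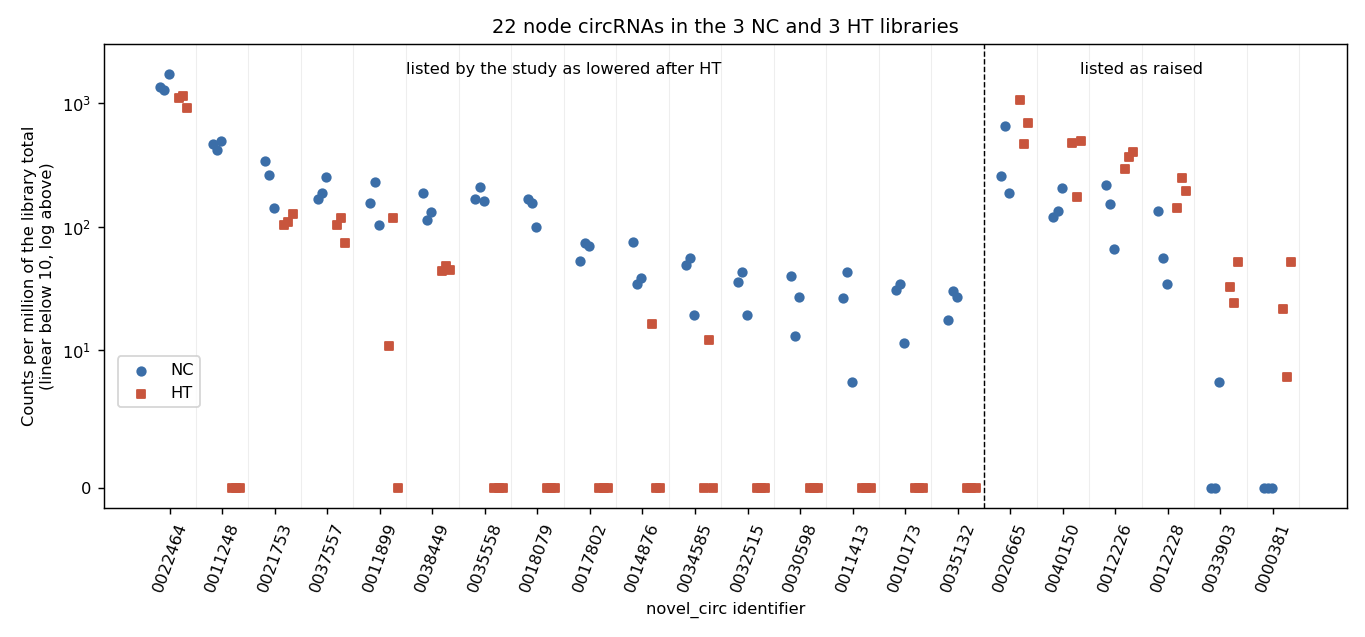
CPM of the library total (linear below 10, log above) of the 22 node circRNAs in the 3 NC libraries (blue circles) and 3 HT libraries (red squares), with those the study listed as lowered left of the dashed line and those listed as raised right of it. In 9 of the 16 listed as lowered, all 3 HT libraries are at 0. Of all listed circRNAs, 0.885% had counts in every NC library and 0 in every HT library.

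Differences among abundant circRNAs were small. The most abundant, novel_circ_0039775, had 4000, 3666 and 4972 counts in NC against 3258, 3865 and 1981 in HT. Its level was 21082 ± 2005 CPM (SD, n = 3) in NC against 18799 ± 2068 CPM (SD, n = 3) in HT, and the groups overlapped. The log2 fold change was -0.17, with a 95% interval of -0.42 to 0.08 (edgeR, unadjusted p = 0.167, adjusted p = 0.999), and without HT replicate 1 it passed the unadjusted threshold (edgeR, unadjusted p = 0.0451, log2 fold change -0.26). novel_circ_0034471 had 1653, 1581 and 2823 counts in NC against 1533, 2220 and 1098 in HT. NC replicate 3 was its highest library, and the group means were 10015 ± 2680 CPM (SD, n = 3) and 9962 ± 752 CPM (SD, n = 3). Its difference of -0.00748 on the log2 scale became 0.23 without NC replicate 3 (edgeR, unadjusted p = 0.0442). novel_circ_0010853 was the steadiest of the 5 most abundant, with 7173 ± 256 CPM (SD, n = 3) in NC against 7315 ± 137 CPM (SD, n = 3) in HT. Its counts were 1309, 1381 and 1601 in NC and 1151, 1475 and 876 in HT, and the 95% interval of its log2 fold change ran from -0.18 to 0.24. novel_circ_0019548 had 1180, 1007 and 1177 counts in NC against 864, 1230 and 586 in HT, with a log2 fold change of -0.04. novel_circ_0020672 had 1060, 955 and 907 counts in NC against 1310, 771 and 642 in HT. Its level was 4923 ± 697 CPM (SD, n = 3) in NC against 5857 ± 2358 CPM (SD, n = 3) in HT, where replicate 1 was high, and the interval of its log2 fold change ran from -0.35 to 0.85. The HT+EA and HT+SEA counts were 3895, 6143 and 3647 and then 4029, 2700 and 3226 for novel_circ_0039775, and 1591, 3470 and 1635 and then 1703, 1581 and 1431 for novel_circ_0034471. They were 1221, 1786 and 1333 and then 1464, 1150 and 1314 for novel_circ_0010853, 1074, 1787 and 1000 and then 1121, 621 and 726 for novel_circ_0019548, and 926, 1077 and 1008 and then 906, 751 and 928 for novel_circ_0020672.

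Among the 100 most abundant circRNAs, at 1372 to 19941 CPM, the median log2 fold change was -0.04 and 90% of values lay between -0.35 and 0.25. The 95% interval lay inside a 2-fold change in either direction for 98 of the 100, beside 31.7% of all tested circRNAs. None exceeded 2-fold, and 3 were called at an unadjusted p below 0.05, all lower in HT. The call with the smallest p was novel_circ_0022464, a node circRNA, with 306, 294 and 444 counts in NC against 202, 282 and 123 in HT. Its groups did not overlap, at 1735 ± 285 CPM (SD, n = 3) and 1235 ± 172 CPM (SD, n = 3), and the log2 fold change was -0.49 (SE 0.18, edgeR, unadjusted p = 0.0234, adjusted p = 0.999). It was not called without NC replicate 3 (edgeR, unadjusted p = 0.0723) or HT replicate 3 (edgeR, unadjusted p = 0.0964). The fit with the replicate number as a block did not call it either (edgeR, unadjusted p = 0.0561). Its counts were 205, 427 and 294 in HT+EA and 371, 204 and 205 in HT+SEA. The other calls, novel_circ_0024723 and novel_circ_0029552, were named after their values were seen. They had log2 fold changes of -0.35 and -0.27 (edgeR, unadjusted p = 0.0458 and 0.0493). On the higher side the smallest p belonged to novel_circ_0036678, with 304, 314 and 373 counts in NC against 297, 383 and 252 in HT. Scaled to depth, every HT library was above every NC library, at 1965 ± 146 CPM (SD, n = 3) against 1656 ± 65.5 CPM (SD, n = 3), yet the difference did not pass (edgeR, log2 fold change 0.25, unadjusted p = 0.0935, adjusted p = 0.999). It had 342, 607 and 304 counts in HT+EA and 326, 309 and 311 in HT+SEA.

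The 2 abundant circRNAs with intervals beyond 2-fold were novel_circ_0004584 and novel_circ_0018587, likewise named after their values were seen. The former had 808, 731 and 352 counts in NC against 782, 759 and 612 in HT, with an interval from -0.21 to 1.24 and a low NC replicate 3. The latter had 324, 445 and 397 in NC and 213, 446 and 0 in HT, with an interval from -2.85 to 1.43. Its HT replicate 3 is one of the unexpected zeros described above.

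**Figure D4:**
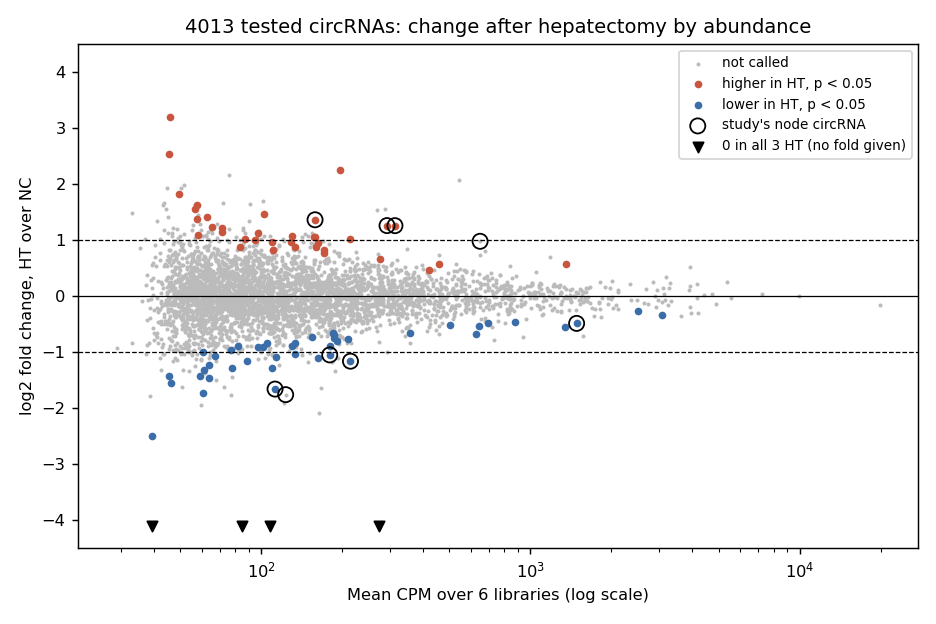
Log2 fold change of HT over NC against mean CPM over the 6 libraries (log scale) for the tested circRNAs, with calls at an unadjusted edgeR p below 0.05 in red (36 higher) and blue (lower in HT), node circRNAs circled, dashed lines at 2-fold and black triangles for the 4 circRNAs at 0 in all HT libraries, for which no fold is drawn. The scatter narrows to the right, and no circRNA among the 100 most abundant passes 2-fold.

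The precision was lower in less abundant circRNAs. In the 900 circRNAs next in abundance, at 221 to 1357 CPM, the median log2 fold change was 0.00106, 90% of values lay between -0.46 and 0.48, and 7 exceeded 2-fold. The interval lay inside 2-fold for 687 of them (76.3%), and 14 were called, 6 higher and 8 lower. In the other 3013 tested circRNAs, at 29.0 to 221 CPM, 90% of values lay between -0.84 and 0.82, and 151 exceeded 2-fold. There the interval lay inside 2-fold for 489 (16.2%), and 66 were called, 30 higher and 36 lower. The median standard error of the log2 fold change was 0.16 in the first class, 0.26 in the second and 0.45 in the third. The median coefficient of variation between replicates rose alongside, from 12.8% in NC and 11.2% in HT among the 100 most abundant to 32.2% and 33.9% among the least abundant tested.

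**Figure D5:**
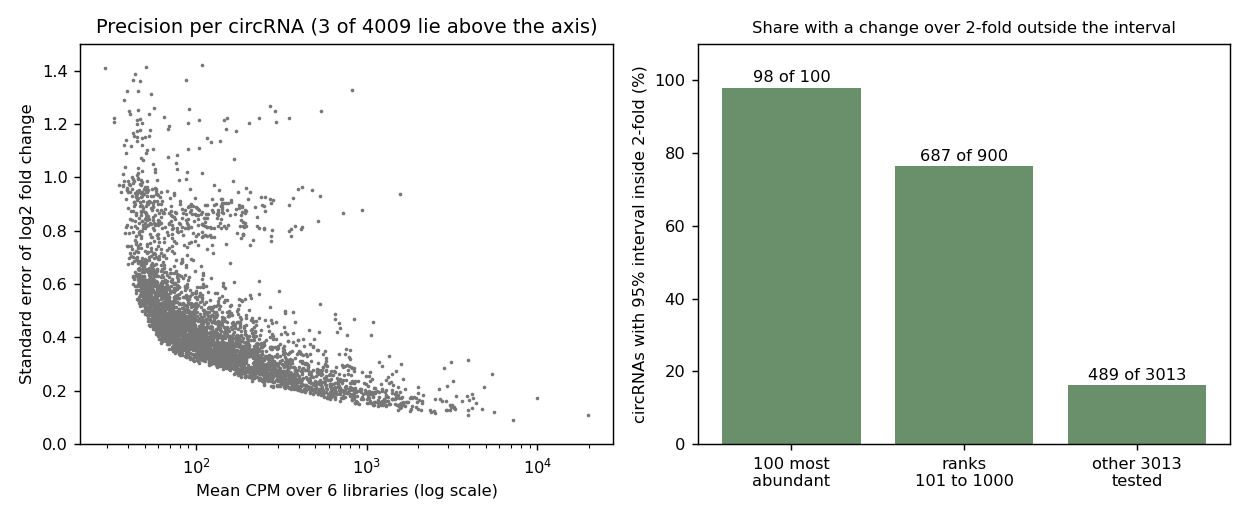
Standard error of the log2 fold change against mean CPM (log scale) for the 4009 tested circRNAs counted in both groups, of which 3 lie above the axis (left), and share of each abundance class whose 95% interval lies inside a 2-fold change (right). The share falls from 98 of 100 to 687 of 900 and 489 of 3013.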

How the data were processed

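Per the study's methods, total RNA of the dissected nucleus was made into strand-specific libraries and sequenced on Illumina instruments. The authors deposited raw read counts per circRNA and library, neither normalised nor pooled. The submitters' processing notes name HISAT2, featureCounts and a human assembly, whereas the methods name the rat assembly mRatBN7.2. Neither the circRNA caller nor its read minimum is stated: not given in the sources used here. circRNAs carry running identifiers without coordinates or host genes. The 12 TPM columns were not used.

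Counts of the 6 libraries were tested with edgeR 4.0.16 (R 4.3.3), using glmQLFit and glmQLFTest, TMM scaling and filterByExpr (minimum count 10, minimum total 15). This left 4013 of 18415 listed circRNAs (21.8%), with 83.6% to 85.7% of each library's counts. CPM use the summed counts of tested circRNAs as library size, except where the library total is named. The smallest nonzero count was 2. Tests were two-sided, called at an unadjusted p below 0.05 and at an adjusted p below 0.05. The study called circRNAs with DESeq2 at p below 0.05 and did not say whether that p was adjusted. Standard errors came from the quasi-likelihood F statistics, and 95% intervals from those errors. No molecular identifiers are described, so counting error treats reads as independent. Libraries are the labelled replicates, and p-values measure the spread between them. The 6 within-group pairs differed by more than sampling noise (chi-square per degree of freedom 2.92 to 4.22), and each was kept as a separate replicate. Equal depth means 20 random thinnings, with values under 2 set to 0. An unexpected 0 is one where at least 20 counts were predicted from the libraries listing that circRNA.

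Alternatives were median-ratio or total-count scaling, other filters, DESeq2 1.42.0, limma-voom (limma 3.58.1), all 12 libraries in 1 fit, the replicate number as a block and each library left out. DESeq2 without a filter, leaving out circRNAs with unexpected zeros, and equal depth for one-group listing were chosen after seeing the data. The edgeR code was tested on simulated data. Named are the 2 higher and 2 lower circRNAs with the smallest p counted in both groups, the 22 node circRNAs, the 5 most abundant, the 2 with most counts (and ties) listed in 1 group only, and the smallest p in each direction among the 100 most abundant. The comparison and these lists were chosen with earlier results of these data known.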

Additional observations from a re-analysis of the deposited data

How the results depend on the processing

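The 83 unadjusted calls of 4013 tested became 456 of 18415 with no filter and 264 of 10070 with a mean count of at least 2. DESeq2 called 35 of 4013, and the fit with all 12 libraries 165 of 4838. With 1 library left out, 88 to 147 were called among 4502 to 4708 tested. Of 4013, 82 were called with median-ratio scaling, 79 with total-count scaling and 121 with limma-voom. DESeq2 with no filter called 108 of 18415. The 2 adjusted calls became 22 with no filter. Of these 22, 21 had a 0 in some library, 9 were listed in 1 library only and 6 had counts in both groups. Adjusted calls numbered 0 with limma-voom, 0 with all 12 libraries and 0 to 3 with 1 library left out. Without NC replicate 1, 1 of them had counts in both groups. Leaving out circRNAs with an unexpected 0 removes the 2 adjusted calls of the main fit by construction, and 0 were then called. The replicate number did not pair the libraries: deviations of same-numbered libraries correlated at -0.0407 to 0.0237, and other pairs at -0.0878 to 0.0803. With the replicate block there were 62 unadjusted and 0 adjusted calls, and novel_circ_0011899 passed (edgeR, unadjusted p = 0.0253). Node calls were 16 lowered and 6 raised with no filter, with a mean count of at least 2 and with DESeq2 without a filter, and 1 raised with all 12 libraries, against 8 and 3. With 1 library left out they were 7 to 10 and 2 to 3. Intervals inside 2-fold, 489 in the least abundant class, numbered 79 with DESeq2, 33 with DESeq2 and no filter and 307 with the block. With 1 library left out they numbered 165 to 318, and 94 to 99 and 515 to 689 in the other classes.

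Leaving out 1 library, the HT minus NC difference in total count was -79357 to -22948.5 and in circRNAs listed -2170 to -559, the profile p was 0.2 to 0.8 (exact permutation tests), and the circRNAs listed in 1 group only numbered 258 to 488 for NC and 102 to 203 for HT. Those numbers were 8 and 0 at a minimum of 5 counts, and 101.35 and 72.7 at equal depth, against 163 and 38.

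The sign changed in 4 of the 5 most abundant circRNAs, none of which was called with all 6 libraries. The log2 fold change of novel_circ_0034471 was 0.00292 with median-ratio scaling, 0.00263 with total count, 0.00300 with DESeq2, 0.0235 with limma-voom and 0.0231 with the replicate block, and with 1 library left out it ran from -0.144 to 0.231. That of novel_circ_0010853 was -0.0161 with no filter and -0.00354 with a mean count of at least 2, and ran from -0.0144 to 0.0506 with 1 library left out. Over the same omissions novel_circ_0019548 ran from -0.123 to 0.0462 and novel_circ_0020672 from -0.119 to 0.473. Of 349 values of 22 tested named circRNAs, 306 kept their direction and side of the unadjusted threshold. The fit with all 12 libraries, limma-voom and the block ended the adjusted calls, and the cause was not tested. In the rare circRNAs fewer intervals lay inside 2-fold, and the parts of depth and replicate variation in that were not separated.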
